A study of Mus musculus with 82 samples.

Results

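Of the 21915 measured features, 9 are enzymes that conjugate foreign and endogenous compounds, open their epoxides, split their esters or reduce their carbonyl groups. They were taken by their gene symbols in the platform annotation: Ugt2b5, Gstt1, Sult1d1, Ephx1, Ephx2, Ces1c, Ces1g, Pon1 and Cbr1. All 9 were found, each as 1 probe, whose platform identifier is a RefSeq transcript accession, and no filter on low values was used. They were followed in mouse liver across BXD strains, between the sexes, against an embryo mix, and between the parental strains.

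The liver makes lipophilic compounds fit for excretion in steps. Oxidising enzymes expose or create reactive groups, hydrolases open epoxides and split esters, and reductases act on ketones. Transferases then attach glucuronic acid, sulfate or glutathione, and the water-soluble products leave in bile or urine. The same enzymes handle steroid hormones, fatty acid epoxides, prostaglandins and lipids, and several of them are known in rodents for levels that differ between the sexes.

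BXD strains are recombinant inbred lines whose genomes are mosaics of C57BL/6J (B6) and DBA/2J (D2). RNA of BXD livers was hybridised on 2-colour arrays against a mix labelled as embryonic day 17.5, from B6 embryos per the series description: 40 arrays of females and 32 of males from 17 strains. Another 2 arrays set B6 male liver against the same mix, 6 set B6 liver directly against D2 liver (3 labelled female, 3 labelled male), and 2 set RNAs labelled enriched B6 and enriched D2 against each other. The description names 18 strains, an age of 10 to 20 weeks and 3 unfasted males per strain, whereas the labels hold 17 strains and both sexes. The labels do not say how many mice gave each RNA. No mouse carried an induced mutation or treatment per the labels.

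Values are log2 ratios, turned so that the liver RNA is on top against the embryo mix and B6 is on top against D2. The direction was set by 7 adult hepatocyte genes, whose median lay above that of 10 embryonic genes on 74 of 74 arrays (lowest hepatocyte median 2.90, highest embryonic median -1.07), none of them a member. As these genes set the direction, the sign of their ratio is not a separate result. The base of the deposited logarithm is not stated and was read as 10. In whole-tissue RNA, fewer cells of a type and less RNA per cell cannot be told apart. Most arrays came in forward and swapped pairs. For 13 strains each sex was hybridised both ways, while BXD strains 8, 9, 14 and 27 have no swapped array. The labels name no separate animals behind arrays of 1 strain and sex, so p-values measure the spread between strains and arrays.

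Arrays in 2 places stood apart or went against their labels. The females of BXD strains 2, 5, 12, 18, 19 and 28 (12 arrays) form 1 unbroken run in the order of deposition, here called run E; the labels name no batch. Several members lay at other levels there than in the remaining females, so that results on the sexes are given with and without these 6 strains. How many of all features split these females in the same way was not counted. The run was singled out after seeing the data, and run and strain cannot be told apart in these females. On the 3 direct arrays labelled female, Cyp2b9, Cyp7b1, Eif2s3y and Uty read as if the B6 RNA were the more male of the pair. The X-linked genes Eif2s3x and Ddx3x overlapped there with the arrays labelled male, as given with the direct comparison. One BXD11 female array has labels in conflict about its orientation and was left out.

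Promoter windows are shown for 3 members: Ugt2b5 and Sult1d1, which lie on the same strand of chromosome 5 with starts 429 kb apart and were both high in the females of run E, and Cbr1, the only member called for strain differences. They span 250 bases before to 50 after the RefSeq start (GRCm38.p6) and are written 5′ to 3′ on the gene's strand. Capitals mark every CG and every match, on either strand, to 4 motifs, none of which overlaps another here. The TATA box was searched as TATAAA. A motif of the hepatocyte factor HNF1 was searched as GTTAAT. A motif of HNF4 was searched as AGTCCA. The core of the antioxidant response element was searched as TGACNNNGC. Ugt2b5 is at chr5:87140291-87140590, minus strand; Sult1d1 at chr5:87568957-87569256, minus strand; Cbr1 at chr16:93607587-93607886, plus strand.
Ugt2b5: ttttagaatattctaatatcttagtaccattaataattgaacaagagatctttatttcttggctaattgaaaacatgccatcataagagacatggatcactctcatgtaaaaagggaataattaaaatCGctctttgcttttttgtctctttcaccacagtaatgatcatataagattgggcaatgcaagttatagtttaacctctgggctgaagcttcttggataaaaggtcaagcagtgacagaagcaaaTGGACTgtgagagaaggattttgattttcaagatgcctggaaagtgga
Sult1d1: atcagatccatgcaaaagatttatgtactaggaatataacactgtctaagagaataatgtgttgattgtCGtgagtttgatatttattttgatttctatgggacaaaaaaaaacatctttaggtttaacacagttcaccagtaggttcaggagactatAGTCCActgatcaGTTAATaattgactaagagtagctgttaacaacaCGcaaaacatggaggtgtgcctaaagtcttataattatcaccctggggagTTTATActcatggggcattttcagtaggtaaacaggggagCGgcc
Cbr1: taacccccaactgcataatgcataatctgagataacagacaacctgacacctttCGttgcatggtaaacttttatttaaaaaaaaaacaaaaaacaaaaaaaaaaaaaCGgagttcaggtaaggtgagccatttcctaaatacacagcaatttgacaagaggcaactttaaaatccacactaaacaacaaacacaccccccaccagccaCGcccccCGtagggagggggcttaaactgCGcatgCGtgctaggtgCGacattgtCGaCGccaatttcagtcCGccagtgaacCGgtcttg

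The Sult1d1 window held the HNF1 and HNF4 motifs 1 time each, the TATA box 1 time, on the opposite strand, and 3 CG. The Ugt2b5 window held 1 CG and the HNF4 motif 1 time, on the opposite strand. The Cbr1 window held none of the 4 motifs and 11 CG, the most among the 8 members with a window, against a median of 7 over all 32851 windows. The TATA box was also matched in Ephx1 and Ces1g and the HNF4 motif in Ephx1, and the antioxidant motif in no member's window. Of all windows 7.1% held the HNF1 motif, 12.4% the antioxidant motif, 13.6% the TATA box and 14.1% the HNF4 motif, and a match describes the letters only. Ces1c and Ces1g also share a strand, of chromosome 8, with starts 206 kb apart.

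Against the embryo mix the members stood high in liver, and 8 of 9 were called higher in liver at an absolute log2 ratio of at least 1 (limma over 13 strain means, adjusted p under 0.05), where 4.72% of all features were called higher. Their median log2 ratio was 2.67, against 0.07 over all features. Every member was above 0 in 13 of 13 strains. A further 9.22% were called lower, and 84.6% had an unadjusted p under 0.05. Because the embryo mix is a single RNA, the test does not hold its variation.

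Among the transferases, Ugt2b5, which attaches glucuronic acid to steroids and drugs, had the largest ratio, 32.6-fold (log2 5.03 ± 0.21 SD, n = 13 strains, lowest 4.76 in BXD32 and highest 5.46 in BXD5). Sult1d1, a cytosolic sulfotransferase, was 6.35-fold higher (2.67 ± 0.50), and Gstt1, a theta-class glutathione transferase that acts on small halogenated compounds, 3.58-fold (1.84 ± 0.42). These last 2 had wider spreads over strains than Ugt2b5. In the single arrays Ugt2b5 ran between 3.77 and 6.33 in females (median 4.99, 39 arrays) and between 4.09 and 5.68 in males (median 4.93, 32 arrays).

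The hydrolases followed in every strain. Pon1, the esterase and lactonase carried on high-density lipoprotein, was 25.4-fold higher in liver (4.67 ± 0.15), with the smallest spread over strains of the 9. The carboxylesterase Ces1c, which mouse liver secretes into plasma, was 22.6-fold higher (4.50 ± 0.26), while its relative Ces1g was 5.09-fold higher (2.35 ± 0.22). The epoxide hydrolases were closer to each other: soluble Ephx2, which opens fatty acid epoxides, was 7.70-fold higher (2.95 ± 0.25), and microsomal Ephx1, which opens epoxides of drugs and aromatic compounds, 5.08-fold (2.35 ± 0.27).

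Cbr1, an NADPH-dependent reductase of quinones, ketones and prostaglandins, had the smallest ratio. It averaged 0.92 ± 0.42 (1.89-fold, SD, n = 13), past the test (adjusted p = 6.79e-07) and short of the size threshold. Females alone averaged 1.30 (adjusted p = 1.48e-08), which is over it, and so did swapped arrays alone at 1.05.

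**Figure D1:**
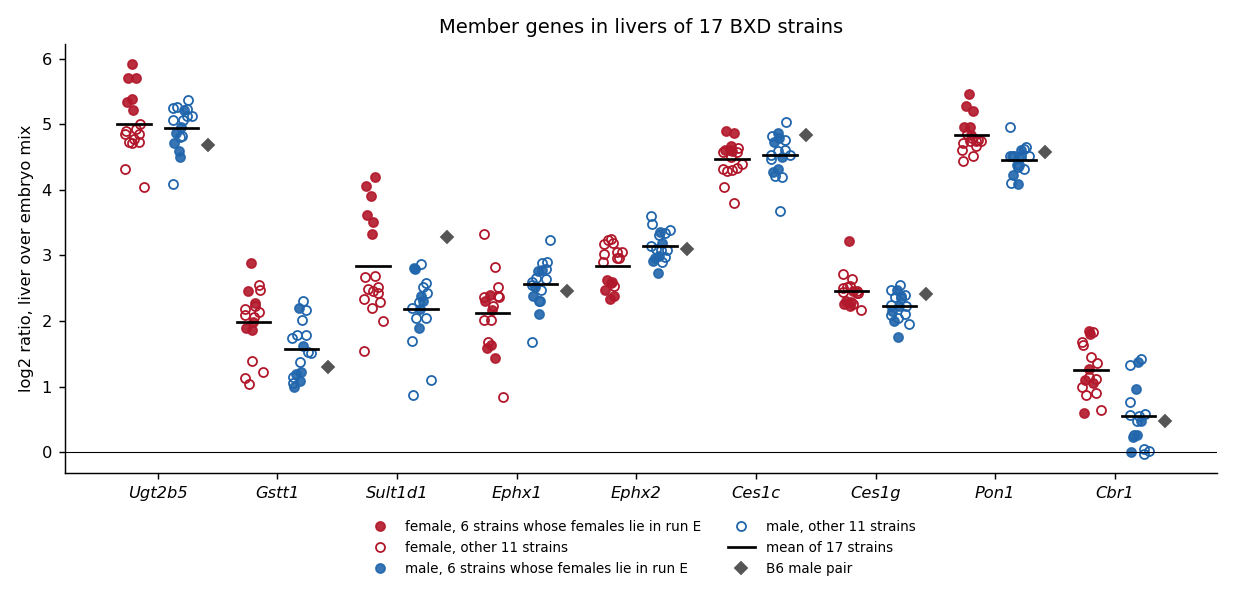
Log2 ratio of liver over embryo mix (y axis) for the 9 members (x axis), 1 point per strain, females (red) left of males (blue), black lines at the mean of 17 strains, filled points for the 6 strains whose females lie in run E and grey diamonds for the B6 male pair of arrays. Filled red points stand above every open red point for Sult1d1 and Ugt2b5, and males of the same 6 strains do not stand apart.

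Of the other genes of these pathways, conjugation of acyl, methyl and amino acid groups was called higher in liver in 6 of 6 measured genes, led by the bile acid conjugating enzyme Baat (4.46) and the methyltransferases Nnmt (3.61) and Inmt (3.51). Carbonyl reduction had 4 of 9 higher, with Hsd11b1, which regenerates glucocorticoids, at 4.41 and the aldo-keto reductases Akr1c14 at 4.02 and Akr1c12 at 2.18. Ester hydrolysis had 2 of 3 (Pon3 1.66, Bche 1.22), sulfation 1 of 4 (Sult1b1 1.63), glutathione conjugation 0 of 4 and glucuronidation 0 of 2, and none was called lower. The list of further epoxide hydrolases had no named feature. Of 12 regulators 5 were higher, led by Foxa3 (2.23) and by the nuclear receptors Nr1h4 (1.90) and Nr1i3 (1.82), the bile acid receptor and the drug sensor CAR.

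On the B6 male pair, 1 value with no replicate check, most members fell within the range of the 13 BXD males. The pair lies in a run of the deposition order that holds no BXD male, so strain and run cannot be told apart here. How many of all features lay outside the range of the BXD males was not counted. Sult1d1 did not: BXD males had 1.70, 2.30 and 2.87 as lowest, median and highest, and the B6 pair 3.27, above 13 of 13. For Ces1c the BXD males had 3.67, 4.53 and 4.86 and the B6 pair 4.83, above 12 of 13. For Ugt2b5 the BXD males had 4.50, 4.95 and 5.24 and the B6 pair 4.68, above 2 of 13.

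Females differed from males in 6 of 9 members (limma on 34 values with strain as a block, adjusted p under 0.05), where 33.3% of all features were called, 16.2% higher and 17.1% lower (42.6% at an unadjusted p under 0.05). Higher in females were Cbr1, Sult1d1, Gstt1, Pon1 and Ces1g, and lower was Ephx2. The sexes had separate RNAs in each of 17 strains, and the difference is female minus male of the same strain. How much of these calls rests on the 6 strains with females in run E differed between members.

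Cbr1 was the most even. Female values ran from 0.60 in BXD2 to 1.84 in BXD28 (median 1.14), and male values from -0.02 in BXD21 to 1.42 in BXD15 (median 0.47). The ranges of the sexes overlap across strains, but within every strain the female was higher (17 of 17; 2.93% of all features kept 1 sign in 17 strains). The mean difference was 0.71 ± 0.23 (SD, n = 17; adjusted p = 1.96e-07), between 0.31 in BXD27 and 1.08 in BXD6. It was called with run as a term too (1 of 9 members, Cbr1, against 21.4% of all features), without the 6 strains and in those 6 alone. In the 5 runs that hold both sexes it lay between 0.29 and 1.52. Some of these runs hold females and males of different strains, so run values here and below mix strain with sex.

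Sult1d1 differed widely between strains. Female values had a lowest, median and highest of 1.54, 2.51 and 4.20, against 0.87, 2.29 and 2.87 in males, a mean difference of 0.66 ± 0.78 (adjusted p = 0.00691; higher in 12 of 17 strains). In run E the 6 females had between 3.33 and 4.20, and the 7 other females with both orientations between 1.54 and 2.69, with no overlap (share over all features not counted). Males of the same strains did overlap, with means of 2.39 ± 0.35 (n = 6) and 2.31 ± 0.38 (n = 7). Without the 6 strains the difference was 0.27 (adjusted p = 0.277), with run as a term 0.35 (adjusted p = 0.268), and the 5 runs with both sexes gave values between -0.28 and 1.80, 3 of them above 0. On forward arrays alone it was not called (0.50, adjusted p = 0.0642).

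Ugt2b5 showed the same split of the females without a difference in the mean over all strains (0.06, adjusted p = 0.790). Females of run E had between 5.22 and 5.93 and the 7 other females between 4.32 and 4.92, with no overlap (share over all features not counted). Males of those strains averaged 4.81 ± 0.26 (n = 6) and 5.05 ± 0.18 (n = 7). In the 6 strains alone Ugt2b5 was called higher in females by 0.74 (adjusted p = 0.00534), while in the full set 7 of 17 strains were higher.

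Pon1 and Ces1c also had females of run E above the 7 others with both orientations, again without a share over all features. For Pon1 they ran from 4.83 to 5.46 against 4.51 to 4.79, and for Ces1c from 4.59 to 4.89 against 3.79 to 4.58. Females with forward arrays only broke this split. BXD9 had 4.85 for Pon1 and BXD14 had 4.64 for Ces1c, both within the ranges of run E. Pon1 was higher in females by 0.38 ± 0.36 (adjusted p = 0.00170, 16 of 17 strains), and without the 6 strains it was one of 3 members called, with Cbr1 and Ces1g, at 0.19 and next to the threshold (adjusted p = 0.04996). With run as a term Pon1 stood at 0.13 (adjusted p = 0.300). By orientation it stood at 0.09 on forward arrays of 17 strains (adjusted p = 0.572) and at 0.80 on swapped arrays of 13 strains (adjusted p = 0.00263). Ces1c, at -0.05 (adjusted p = 0.655), was not called. It was lower in females in 5 of 5 runs with both sexes, between -0.78 and -0.09, though strains were not matched within all of these runs.

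Gstt1 and Ces1g were higher in females by smaller amounts. Gstt1 females had a lowest, median and highest of 1.04, 2.10 and 2.89, against 0.99, 1.53 and 2.31 in males, a difference of 0.42 ± 0.54 (adjusted p = 0.0120, 13 of 17 strains). Without the 6 strains it stood at 0.19 (adjusted p = 0.366). Ces1g averaged 2.46 ± 0.25 in females and 2.23 ± 0.21 in males (SD, n = 17), a difference of 0.24 (adjusted p = 0.00237, 16 of 17 strains). On forward arrays of 17 strains Ces1g stood at 0.09 (adjusted p = 0.324), and on swapped arrays of 13 strains at 0.42 (adjusted p = 0.0209). With run as a term Gstt1 stood at 0.18 (adjusted p = 0.502) and Ces1g at 0.20 (adjusted p = 0.190).

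Of the epoxide hydrolases, Ephx2 was called lower in females and Ephx1 was not called. Ephx2 averaged 2.84 ± 0.31 in females and 3.15 ± 0.23 in males (n = 17), a difference of -0.31 ± 0.26 (adjusted p = 0.00107). It was lower in females in 15 of 17 strains and in 5 of 5 runs, where strains were not always matched. It was not called without the 6 strains (-0.19, adjusted p = 0.0583) or with run as a term (-0.22, adjusted p = 0.0888) or on swapped arrays alone (-0.22, adjusted p = 0.172), and it read 0.12 (adjusted p = 0.654) when arrays were scaled to 1 spread. Ephx1 had a mean difference of -0.44 ± 0.79 (adjusted p = 0.0654), below 0 in 16 of 17 strains. Over the 5 runs with both sexes it lay above 0 in 3 (between -1.29 and 1.64), and with run as a term it stood at -0.42 (adjusted p = 0.356). BXD27 was the exception at 1.64, and without it the mean was -0.57 (adjusted p = 0.00398).

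**Figure D2:**
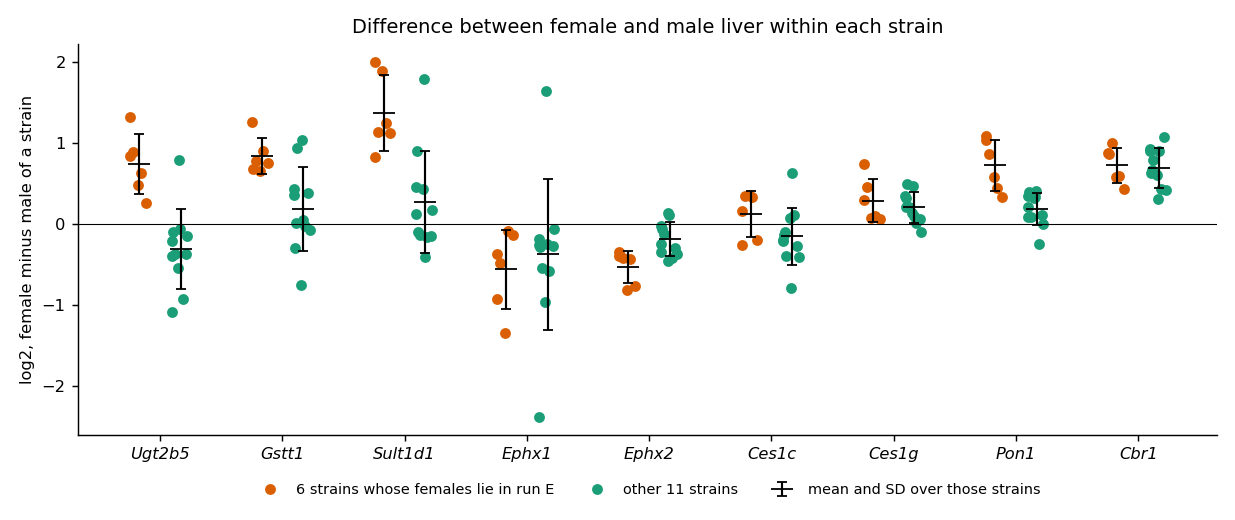
Female minus male log2 ratio of each strain (y axis) for the 9 members (x axis), with the 6 strains whose females lie in run E (orange) left of the other 11 (green) and black marks at the mean and SD of each set. All points lie above 0 for Cbr1, whereas for Sult1d1 and Ugt2b5 the orange points lie above 0 and the green ones on both sides of it.

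Ephx1 was the least repeatable member. Its forward and swapped arrays of 1 RNA differed by over 1 in 8 of 31 pairs, most in BXD6 females (3.51 forward, 1.53 swapped). For Cbr1, Sult1d1 and Ephx2 no pair differed by that much. Over the 5 strain and sex sets with a second replicate number, the SD between replicates was 0.52 for Ephx1, 0.34 for Gstt1, 0.31 for Sult1d1 and between 0.07 and 0.22 for the rest, with Cbr1 at 0.07.

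Other measures differed between these sets of females. The mean log2 ratio of the 7 hepatocyte markers had a median of 3.83 in the strains with females in run E and 3.57 in the other 7 strains. The SD of all features on an array had a median of 0.96 over the 12 arrays of run E and 0.89 over the 27 other female arrays. Macrophage markers (4 genes) had medians of 0.31 and 0.22 and endothelial markers (4 genes) -0.07 and -0.08. Over all strains the hepatocyte mean ran from 3.24 to 3.98 in females and from 3.24 to 3.77 in males, and that of 5 red cell genes from -1.80 to -0.79 and from -1.32 to -0.80. Between the sexes, 1 of 7 hepatocyte genes was called higher in females, macrophage markers 2 of 4 higher and 1 lower, endothelial markers 1 of 4 higher and 2 lower, lymphocyte markers 2 of 4 higher, stellate and fibroblast markers 2 of 5 higher, and red cell genes 1 of 5 lower. Their part in the member results was not tested. Cyp2b9, the female-predominant P450, was higher in females of 17 of 17 strains (2.19 ± 0.51) and Cyp7b1, the male-predominant one, lower in 17 of 17 (-2.51 ± 0.78).

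Related genes moved in both directions between the sexes. Acyl, methyl and amino acid conjugation had 4 of 6 called higher in females (Nnmt 0.72, the arylamine acetyltransferase Nat2 0.47, the arsenic methyltransferase As3mt 0.39), and ester hydrolysis 1 of 3 (Pon3, a relative of Pon1, 0.47). Carbonyl reduction had 4 of 9 higher, led by Hsd11b1 (0.45), Akr1c14 (0.44) and the quinone reductase Nqo2 (0.43), and 1 lower (Akr1b8, -0.33). Sulfation had 1 of 4 higher (Sult1b1, 0.48) and 2 lower (Papss1, which makes the sulfate donor, -0.44, and Sult5a1, -0.35). Glutathione conjugation had 1 of 4 lower (Hpgds, -0.51), glucuronidation 0 of 2, and regulators 2 of 12 higher (Keap1 0.35, Nr1h4 0.34) and 1 lower (Onecut1, -0.36).

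Across the 13 strains with both orientations, Cbr1 was the 1 member called for a strain difference (moderated F = 13.6, adjusted p = 0.00310, n = 26 values), where 1.21% of all features were called. Its strain means ran 2.51-fold, with a residual SD of 0.16. The lowest were BXD2 (0.30), BXD21 (0.44), BXD6 (0.58) and BXD12 (0.67). BXD5 (0.77), BXD18 (0.77), BXD16 (0.78) and BXD32 (0.81) lay next, closer together than the residual SD.

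Above them stood BXD31 (1.0), BXD11 (1.23), BXD28 (1.41), BXD19 (1.59) and BXD15 (1.63). The widest step between neighbours was 0.23, between BXD31 and BXD11, against the residual SD of 0.16, so that neighbours are not told apart. BXD15 had 1.84 in females and 1.42 in males, BXD19 1.81 and 1.38. BXD2 had 0.60 in females and 0.01 in males.

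The Cbr1 call was lost on swapped arrays alone (adjusted p = 0.0603) and without the 6 strains whose females lie in run E (adjusted p = 0.0570). Leaving out any 1 strain kept F between 11.6 and 15.7, with the call.

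The remaining 8 members were not called. Gstt1 came closest (F = 4.78, adjusted p = 0.110), with strain means from 1.14 in BXD16 to 2.54 in BXD28, a range of 2.64-fold, against a residual SD of 0.29. It was called over 7 strains without the 6 named above (F = 17.9, adjusted p = 0.0255). On 31 values with the run as a term it was called too (F = 5.51, adjusted p = 0.0431), where 3.5% of all features were. The 31 values count replicate numbers of a strain and sex as separate, though the labels name no separate animals. Without the run term they called 3 members and 1039 features, against 2 and 767 with it. Ephx2 (F = 3.99), Ces1g (3.35), Ces1c (2.85), Ephx1 (2.43) and Sult1d1 (1.89) had adjusted p between 0.168 and 0.456. Pon1 (0.65) and Ugt2b5 (0.53) had F below 1. At an unadjusted p under 0.05, 14.2% of all features differed between strains. Of the related lists, Sult5a1 (F = 6.47, adjusted p = 0.0469) and the coactivator Ppargc1a (F = 11.9, adjusted p = 0.00496) were called.

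**Figure D3:**
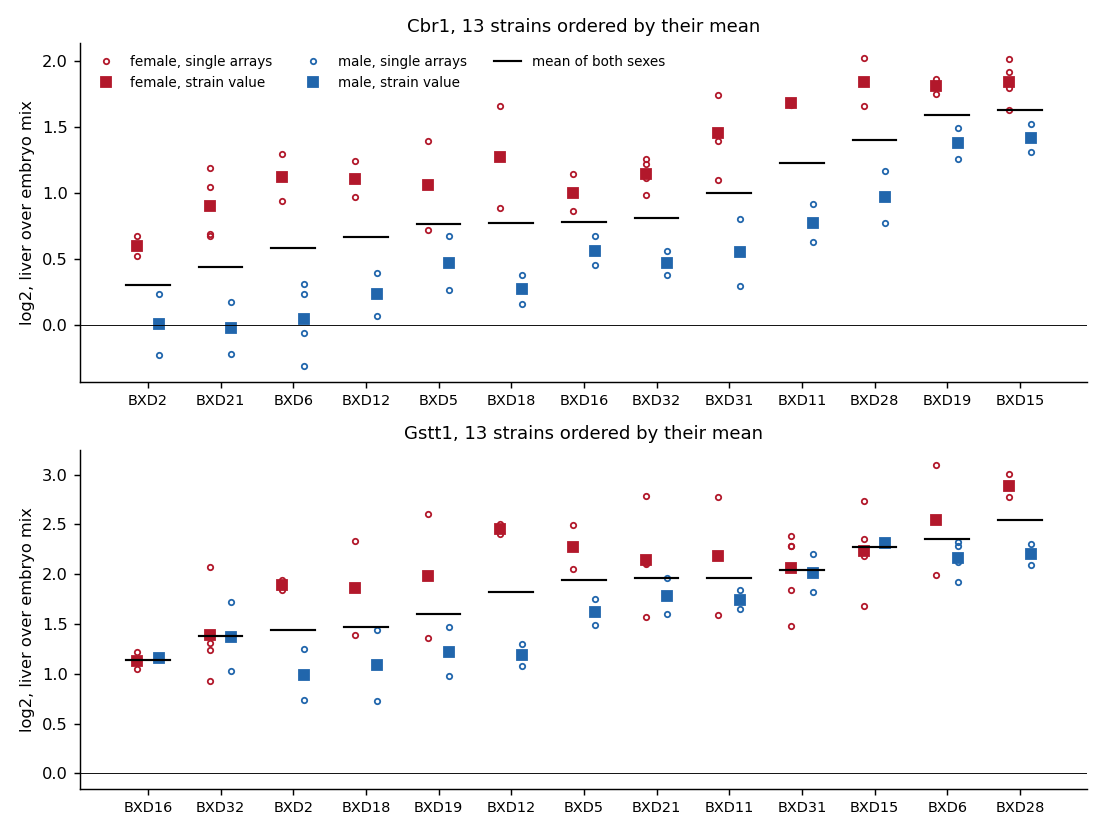
Log2 ratio of liver over embryo mix (y axis) in the 13 strains with both orientations, ordered by the mean of both sexes (black line), for Cbr1 (top) and Gstt1 (bottom); females in red, left of males in blue, squares for strain values and circles for single arrays. Cbr1 rises over the order in both sexes with the female square above the male one in every strain, while in Gstt1 the sexes nearly coincide in BXD16, BXD32 and BXD31.

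Whether a strain kept its place in the other sex was asked over the same 13 strains, for 9 members. The strain F above took the same female and male values as the values of a strain, so a high r is not separate support for that call. The correlation was run for the members only, so no share over all features is given. Cbr1 was the 1 member past the adjusted threshold, with r = 0.876 (permutation p = 6e-05, adjusted p = 0.00054) and rho = 0.813 (permutation p = 0.00144, adjusted p = 0.0130), both two-sided. Without BXD15 and BXD28, the 2 strains farthest from the female median, r was 0.829. Within the 6 strains whose females lie in run E r was 0.905 and within the 7 others 0.854 (exact permutation p = 0.0153 and 0.00932, both 0.0768 adjusted over 18 values).

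Gstt1 gave r = 0.607 (permutation p = 0.0258, adjusted p = 0.0797) and rho = 0.654 (permutation p = 0.0185, adjusted p = 0.0830), 0.601 without BXD16 and BXD32. Its r was higher within the sets, 0.868 in the 6 strains and 0.904 in the 7 (exact permutation p = 0.0361 and 0.00714, adjusted p = 0.130 and 0.0768). In the scatter of the sexes its 2 sets lie as parallel bands, with females of run E to the right.

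Ephx2 gave r = 0.611 (permutation p = 0.0266, adjusted p = 0.0797) and rho = 0.577 (permutation p = 0.0413, adjusted p = 0.0929), 0.668 without 2 strains, and 0.408 and 0.672 within the sets. Ces1g gave r = 0.537 (permutation p = 0.0535, adjusted p = 0.120) and rho = 0.610 (permutation p = 0.0303, adjusted p = 0.0908), 0.411 without 2 strains. Ephx1 gave r = 0.415 (permutation p = 0.158, adjusted p = 0.203) and rho = 0.538 (permutation p = 0.0611, adjusted p = 0.110), and 0.858 without BXD5 and BXD12 (adjusted p = 0.00486), whose females had 1.44 and 1.59.

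Ces1c gave r = 0.441 (permutation p = 0.133, adjusted p = 0.199) and rho = 0.352 (permutation p = 0.241, adjusted p = 0.271), 0.318 without 2 strains, and 0.04 and 0.45 within the sets. Pon1 gave r = -0.292 (permutation p = 0.333, adjusted p = 0.333) and rho = -0.357 (permutation p = 0.231, adjusted p = 0.271), -0.098 without 2 strains, and -0.07 and -0.02 within the sets. In Ces1c, Pon1, Ugt2b5 and Sult1d1 the females of run E lay apart from those of the 7 strains, so pooled values mix the sets. Pooled r was -0.484 for Ugt2b5 (permutation p = 0.0948, adjusted p = 0.171) and 0.292 for Sult1d1 (permutation p = 0.330, adjusted p = 0.333). Within the 6 and the 7 strains r was 0.04 and -0.26 for Ugt2b5 and 0.08 and 0.72 for Sult1d1, with a lowest exact permutation p of 0.0762.

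**Figure D4:**
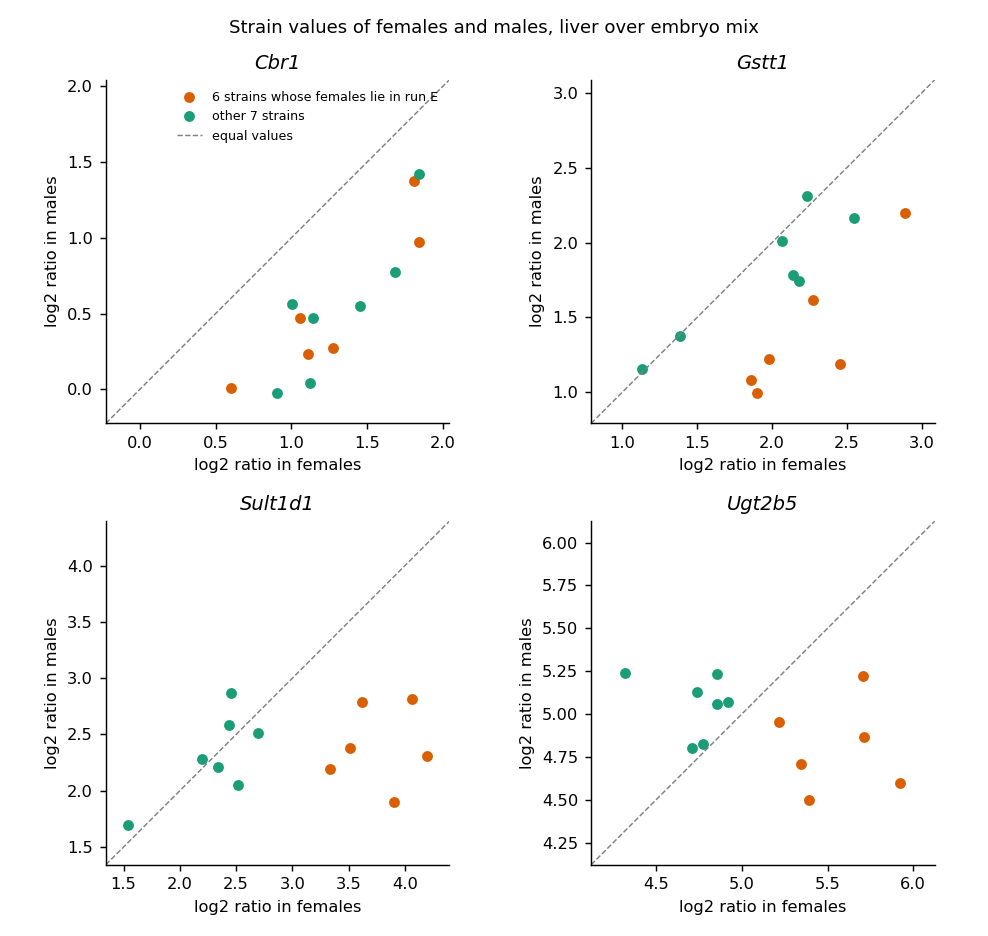
Strain values in females (x axis) and males (y axis), log2 ratio of liver over embryo mix, for Cbr1, Gstt1, Sult1d1 and Ugt2b5; orange, the 6 strains whose females lie in run E, green, the other 7, dashed line, equal values. Cbr1 points follow 1 slope below the line (r = 0.876), whereas orange points of Sult1d1 and Ugt2b5 are shifted to the right of the green ones.

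Between members, 0 of 36 pairs passed the adjusted threshold over 13 strain means (100000 permutations, two-sided; 5 pairs at an unadjusted p under 0.05; smallest adjusted p 0.100, for Sult1d1 with Ephx2). Since the females of run E lay apart from the others for several members, values within the sets are given. Sult1d1 and Ephx2 had r = -0.07 in the 6 strains and -0.62 in the 7, Ugt2b5 and Sult1d1 0.33 and 0.46, and Ugt2b5 and Pon1 0.85 and -0.25. Gstt1 and Ephx1 had 0.62 and 0.80.

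Named genes with the most similar pattern were sought over 26 values (13 strains by 2 sexes, centred within sex), which share arrays, the embryo mix and the runs; r is given as a description. Cbr1 was most like Cyp26a1, which degrades retinoic acid (0.802), Mettl1 (0.734) and Inhba (0.720). Gstt1 was most like the fructokinase gene Khk (0.897, with 0.901 in females and 0.895 in males), Aldh1a7 (0.855) and Mrpl23 (0.807). Pon1 was most like Baat (0.841), C4bp (0.811) and Aldh1a1 (0.792).

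Several of these r were higher in females, where run E lies, than in males, among them Pon1 with C4bp (0.978 in females, 0.417 in males) and Ephx2 with Rnf10 (0.945 and 0.426). Sult1d1 was most like the respiratory chain genes Ndufa4 (0.890, with 0.957 in females and 0.470 in males) and Ndufb11 (0.864), and Ube2b (0.859). Ugt2b5 was most like Vamp8 (0.885, with 0.964 in females and 0.515 in males), Akr1c12 (0.863) and Akr1c14 (0.858). Ces1c was most like Adamdec1 (0.743), Cidea (0.703) and Alox15 (0.662), the lowest likeness of the 9.

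Ephx1 was most like the glucagon receptor gene Gcgr (0.863), Acp5 (0.845) and a feature named APOE (0.828). Ephx2 was most like Nptx2 (0.804), Rnf10 (0.804) and the carnitine palmitoyltransferase Cpt2 (0.795). Ces1g was most like Defb4 (0.796), Trem3 (0.739) and Auh (0.729).

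In the direct comparison of the parental strains, the labels of 3 arrays went against several sex-biased genes. On the arrays labelled female, Cyp2b9 read between -2.92 and -2.52 (B6 over D2), Cyp7b1 between 2.47 and 2.67, and the Y-linked genes Eif2s3y and Uty between 0.56 and 0.74 and between 0.57 and 1.37. On the arrays labelled male, Cyp2b9 read between -0.26 and 0.14, Cyp7b1 between -0.09 and 0.31, Eif2s3y between 0.01 and 0.21 and Uty between -0.11 and 0.33. The X-linked genes Eif2s3x and Ddx3x, higher in females of 17 of 17 BXD strains, overlapped between the labels. Eif2s3x read between -0.44 and 0.17 on arrays labelled female and between -0.04 and 0.30 on arrays labelled male. Ddx3x read between -0.63 and -0.02, and between -0.57 and 0.25, in the same order. The cause was not tested, and the sets are called by their labels below. Forward and swapped arrays of the direct pairs hardly mirrored each other over all features: as deposited, their r was -0.133 for the pair labelled female and 0.0187 for the pair labelled male, so that the direction of every B6 over D2 value rests on the orientation labels.

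Over the 4 values (1 per sex label and replicate number), 0 of 9 members were called by limma, where 0.178% of all features were called (0.0913% higher in B6, 0.0867% lower; 13.2% at an unadjusted p under 0.05). Ugt2b5 lay above 0 by a like amount in both sets: 0.90 and 0.79 on arrays labelled female, 0.74 and 0.68 on arrays labelled male, a mean of 0.78 (adjusted p = 0.0501). It was called when the dye was modelled on 6 arrays (0.83, adjusted p = 0.00288) and when the dye effect of the BXD pairs was subtracted (0.81, adjusted p = 0.0281), and not in the other alternatives. All 6 arrays had B6 above D2, from 0.57 to 1.01. The 6 arrays stand for 4 values, since replicate 1 of each label is a forward and swapped pair, and the fit on 6 counts them as separate. The other value of each label is a single swapped array, so the dye effect is averaged out in replicate 1 only. The dye effect of the direct pairs correlated with that of the BXD pairs at r = 0.67 (labelled female) and 0.76 (labelled male). For the members, the dye effect of the BXD pairs lay between -0.13 (Cbr1) and 0.16 (Gstt1).

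For 5 members the sets lay on opposite sides of 0 (share over all features not counted). Cbr1 had -1.28 and -1.34 on arrays labelled female and 0.40 and 0.23 on arrays labelled male. Sult1d1 had -0.44 and -0.60, and 1.12 and 1.31, in the same order. Pon1 (-0.58, -0.56 and 0.49, 0.81), Gstt1 (-0.46, -0.55 and 0.58, 0.44) and Ces1g (-0.39, -0.53 and 0.55, 0.42) had the same split, and these 5 are the members called higher in BXD females.

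The sex term put these differences (labelled female minus labelled male) at -1.73 for Sult1d1, -1.62 for Cbr1, -1.22 for Pon1, -1.01 for Gstt1 and -0.95 for Ces1g, with limma adjusted p between 0.305 and 0.547. No feature was called for it (0 of 21915, or 0%; 7.63% at an unadjusted p under 0.05). On 6 arrays with a dye term Sult1d1, Pon1 and Ces1g were called (adjusted p between 0.0210 and 0.0378; 82 features), with the same pairs counted as separate. The part of the sex-biased genes in these values was not tested.

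Fitted alone, the arrays labelled male called 0 features by limma (5.75% at an unadjusted p under 0.05), and the arrays labelled female 0 (11.5%). On those labelled male the means were 1.21 for Sult1d1, 0.71 for Ugt2b5, 0.66 for Ces1c, 0.65 for Pon1, 0.51 for Gstt1, 0.49 for Ces1g, 0.32 for Cbr1, 0.22 for Ephx2 and 0.09 for Ephx1. All were above 0, and adjusted p lay between 0.254 and 0.887.

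Ephx2 was above 0 on all 6 arrays, with values of 0.53 and 0.45 on arrays labelled female and 0.11 and 0.34 on arrays labelled male (mean 0.36, adjusted p = 0.341). Ces1c had 0.07 and 0.08, and 0.63 and 0.69 (mean 0.37, adjusted p = 0.377). Ephx1 stayed near 0, between -0.08 and 0.21 (adjusted p = 0.841). Of the related lists, the methyltransferase Tpmt was called lower in B6 (-1.34, adjusted p = 0.0253) and Akr1c14 higher (1.21, adjusted p = 0.0358).

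**Figure D5:**
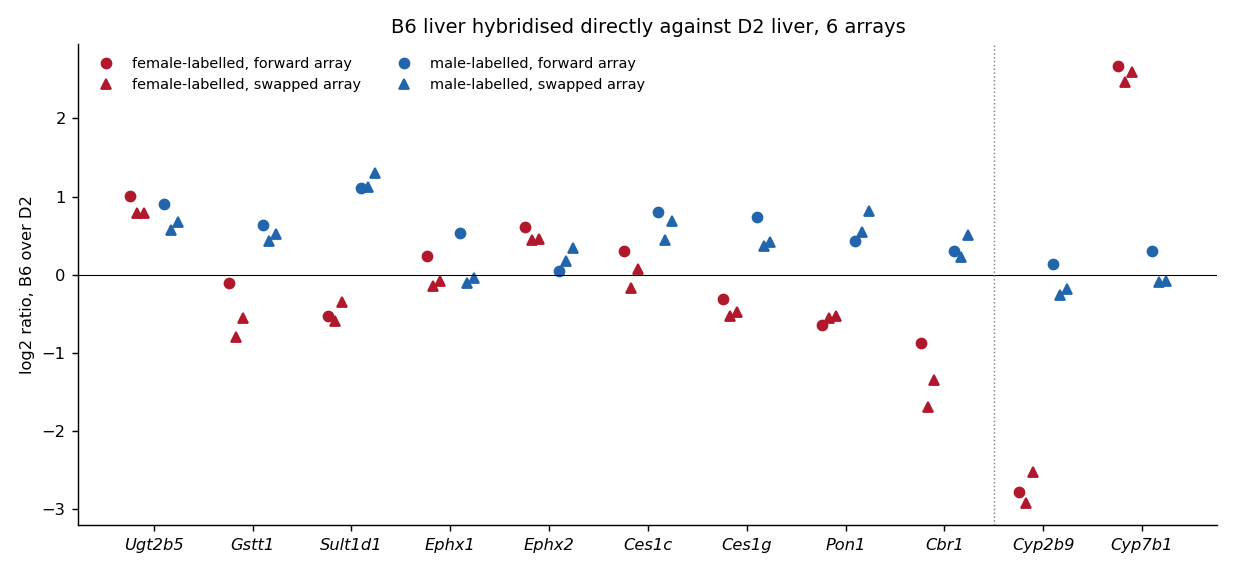
Log2 ratio of B6 over D2 liver (y axis) on each of 6 direct arrays for the 9 members and, right of the dotted line, 2 sex-biased genes (x axis); arrays labelled female (red) left of arrays labelled male (blue), circles for forward and triangles for swapped arrays. Ugt2b5 lies above 0 on all 6 arrays, Cbr1, Sult1d1, Pon1, Gstt1 and Ces1g on opposite sides of 0 by label, and Cyp2b9 and Cyp7b1 far from 0 on the arrays labelled female only.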

How the data were processed

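The deposited value tables hold 1 log ratio per probe and array for 21936 probes on 82 arrays, with no unit stated. They were read as log10 ratios, since no deposited value exceeds 2 in size and 94 equal it, and multiplied to log2. The scanner, the normalization and the dyes (both channels carry the same dye label) are not given in these sources, and signal over background was not analysed here. Swapped arrays were multiplied by -1. As deposited, they correlated with their forward partners between -0.895 and -0.556 against the embryo mix, but at -0.133 (labelled female) and 0.0187 (labelled male) in the direct pairs, whose turn rests on the labels. Probes were named from the platform annotation (3290 with 1 symbol) and 170 more through RefSeq accessions; 18476 stayed unnamed and were tested.

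Arrays were averaged within orientation, then across. Models were fitted in R 4.3.3 by limma 3.58.1, lmFit then eBayes, with Benjamini-Hochberg adjustment over 21915 features, at 0.05. Correlations used 100000 permutations, or exact enumeration within the sets of 6 and 7 strains. The fitting code was tested on simulated data. Their number limits the precision of arrays. The members and gene lists were chosen with earlier results of these data known. All members are described; list genes named are the 3 largest called per direction, and the 3 named genes most like each member, clone names passed over. Replicate numbers of the direct arrays are not stated to mark shared animals, and with 2 pairs the numbers were not taken to pair the samples.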

Additional observations from a re-analysis of the deposited data

Results flagged for a closer look

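Over 45 sets of at least 4 arrays of 1 strain and sex (5 sets for each of 9 members), 1 held an array far from the others, where chance marks about 1 set in 20. Ephx1 read 2.31 on the forward array of replicate 2 of BXD15 females, and between 2.94 and 3.03 on the other 3 arrays.

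In all, 5 of 9 members lay on opposite sides of 0 in the direct B6 and D2 arrays by sex label: every array labelled female was below 0 and every array labelled male above it. How many of all features split in this way was not counted. The difference (labelled female minus labelled male, log2) was -1.01 for Gstt1, -1.73 for Sult1d1, -0.95 for Ces1g, -1.22 for Pon1 and -1.62 for Cbr1. None passed the sex term of limma on 4 values (adjusted p between 0.305 and 0.547). On the same arrays labelled female Cyp2b9 and Cyp7b1 went against the label, and the part of this in the member values was not tested.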

How the results depend on the processing

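Against the embryo mix 8 members (9 on swapped arrays or in females alone) were called in the alternatives run, 8 without any 1 strain, with 1 exception: read as log2, the deposited values gave 3 members and 209 features. Between the sexes 6 members and 7295 features became 3 and 5745 on forward arrays (Cbr1, Gstt1, Ephx2) and 3 and 5000 without the 6 strains of run E. They became 0 and 0 in the 4 strains with forward arrays only, and 1 and 4695 with run as a term. Leaving out 1 strain gave 6 to 7 members and 6543 to 8069 features. Scaled arrays reversed Ephx2 (0.12) and Ces1c (0.54, adjusted p = 0.0449) and called Ugt2b5 (0.66, adjusted p = 0.00612). For strain differences 1 member and 265 features became 147 features on forward arrays, 0 members and 101 features on swapped arrays, 3 and 5642 in all 17 strains, 2 and 767 on 31 values with the run as a term (32 were planned), 3 and 1039 without it, and 150 to 286 features without 1 strain (150 without BXD15). For B6 against D2, 39 features became 74 with scaling, 24 with quantile normalization, 0 with a variance trend, 25 with replicate 1, 0 with either sex label alone and 0 to 29 without 1 value (3, 0 and 2 without the value labelled female of replicate 1, male of replicate 1 and male of replicate 2). Subtracting the dye effect gave 70 features and 1 member (61.4% higher, against 51.3%), the dye term on 6 arrays 274 and 1, and the enriched arrays 510 and 1 (Ephx2). The replicate block gave 9 features and 0 members, and same-numbered values deviated together at r = 0.325 over features. In both labels replicate 1 averages a forward and a swapped array and replicate 2 is 1 swapped array. These deviations thus share the dye effect, and this r cannot show pairing. The sex term of the direct arrays gave 82 features and 3 members with the dye term. The correlation of the sexes held for 2 members on swapped arrays and without 2 strains and 3 in all 17 strains, against 1. Alternatives on run E, the sex labels and the sex term were chosen after seeing the data.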

Other observations

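On the 2 arrays labelled enriched, which belong to no comparison above since the labels do not say what was enriched, the members read as follows, B6 over D2, with the array labelled female first and that labelled male next. Ces1c had 0.78 and 0.90, Ephx2 0.43 and 0.45, and Sult1d1 0.18 and 0.88, all above 0. Cbr1 had -0.86 and -0.20. Ugt2b5, at -0.07 and -0.43, lay below 0 here, unlike on the 6 other direct arrays. Gstt1 had -0.01 and 0.08, Ces1g 0.13 and 0.09, Pon1 0.29 and -0.06, and Ephx1 0.16 and -0.15. Cyp2b9 read 0.30 and 0.22 and Cyp7b1 -1.26 and -1.22 on these arrays.

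The BXD11 female array with conflicting orientation labels, read as forward, correlated between 0.798 and 0.863 with the other BXD11 arrays. It read 3.84 for Ugt2b5 and 1.42 for Gstt1, below the 4.88 and 2.78 of the other forward array of those females, and 1.5 for Cbr1, against 1.70 there.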
